A study of Mus musculus with 2 samples.

Results

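The genes described are those of the proteasome, the particle that degrades ubiquitin-tagged proteins, as measured in mouse pancreas. They were chosen by name as the protein-coding genes whose symbol starts with Psm, a letter from a to g and a number, and 50 of 43346 gene rows met that rule. Symbols matched 54 rows in all, of which 4 were pseudogenes and were set aside. Of the 50 genes, 48 were given a role by name, as subunit, activator, inhibitor or chaperone. Psmc3ip and Psme2b, whose symbols carry letters after the number, were given no role.

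The proteasome core is a stack of rings made of alpha and beta subunits, and the catalytic beta subunits cut the substrate inside it. A cap of ATPases and non-ATPase subunits binds, unfolds and feeds in ubiquitin-tagged proteins, and other activators can open the core in place of the cap. In immune cells and in cells exposed to interferon gamma, the constitutive catalytic subunits Psmb6, Psmb7 and Psmb5 can be exchanged for the immune subunits Psmb9, Psmb10 and Psmb8, which alters the peptides made for display on class I molecules. Pancreatic acinar cells make large amounts of secreted enzyme, and the proteasome also degrades proteins that misfold in their endoplasmic reticulum.

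Polyadenylated RNA was sequenced from whole pancreas; the donor was 1 female C57BL/6J mouse, an adult of 10 weeks, and the extraction kit was one for fatty tissue. The 2 libraries, called replicate 2 and replicate 1, are technical replicates of that single biological sample, so the spread between them is technical and says nothing of differences among mice. Replicate 2 was made in May 2015, and the labels give no date for replicate 1. The study has 1 group and no comparison of conditions.

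The libraries held 9797569 estimated counts in replicate 2 and 9441559 in replicate 1. They differed in make-up: the transcript Gm42418 took 42.8% of counts in replicate 2 against 16.9% in replicate 1, and mitochondrial genes took 3.17% against 17.6%. Markers of acinar cells fitted the label, with Ctrb1, a chymotrypsinogen, at 38071 TPM in replicate 2 and 27460 TPM in replicate 1. Levels are given in TPM, transcript abundances scaled to a fixed library total, which correct for length, and counts are reads assigned to a gene.

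Bases upstream of 3 catalytic subunit genes are shown because those genes hold the highest immune level and the 2 constitutive promoters with a match to a stress-response motif. They come from RefSeq on build GRCm38.p6, run 5′ to 3′ on the gene's own strand and leave out every base of an annotated exon. Capitals mark a match to TGACNNNGC, the core of the antioxidant response element bound by Nfe2l1 and Nfe2l2, and no capitals means no match in the stretch shown.
Psmb10: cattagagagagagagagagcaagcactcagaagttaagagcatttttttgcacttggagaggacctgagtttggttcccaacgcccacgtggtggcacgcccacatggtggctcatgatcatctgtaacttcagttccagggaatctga
Psmb6: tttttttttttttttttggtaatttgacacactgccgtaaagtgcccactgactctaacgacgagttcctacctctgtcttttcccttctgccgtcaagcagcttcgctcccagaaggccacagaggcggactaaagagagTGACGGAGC
Psmb5: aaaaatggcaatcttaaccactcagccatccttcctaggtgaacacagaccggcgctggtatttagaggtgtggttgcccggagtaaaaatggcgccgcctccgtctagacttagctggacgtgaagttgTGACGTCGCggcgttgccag

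The Psmb10 stretch lies at chr8:105938445-105938594 on the minus strand, the Psmb6 stretch at chr11:70525207-70525356 on the plus strand and the Psmb5 stretch at chr14:54618023-54618172 on the minus strand. In the 250 bases before the RefSeq start, searched on both strands, TGACNNNGC occurred in 5 of the 42 proteasome genes with a promoter entry, or 11.9%, against 11.5% of all 27025 genes with one. Those 5 were Psmb5, Psmb6, Psmc6, Psmd12 and Psmd9. The core of the interferon-stimulated response element, GAAA, any 2 bases and GAAA again, occurred in Psmb3, Psmd4 and Psmd9, or 7.14% of the proteasome genes with an entry against 3.46% of all genes with one. Psmb7 has no promoter entry. The interferon motif was not found in the windows of Psmb8, Psmb9 or Psmb10. The windows of Psmb8 and Psmb9 lie wholly in annotated exons and are not printed.

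Proteasome genes were detected broadly and at moderate levels. Of the 50, 45 reached 1 TPM in both libraries. Their median level was 11.0 TPM in replicate 2 and 12.4 TPM in replicate 1, against 4.16 and 4.99 TPM for the 9964 protein-coding genes at 1 TPM or more in both libraries. Their summed level was 629 TPM (replicate 2) and 699 TPM (replicate 1), which is 0.0664% ± 0.00495 of all TPM (SD, n = 2 technical libraries). The share was 0.122% ± 0.0129 when the total left out Gm42418, Gm26917, Lars2 and genes of mitochondrial sequence, nuclear copies included.

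**Figure D1:**
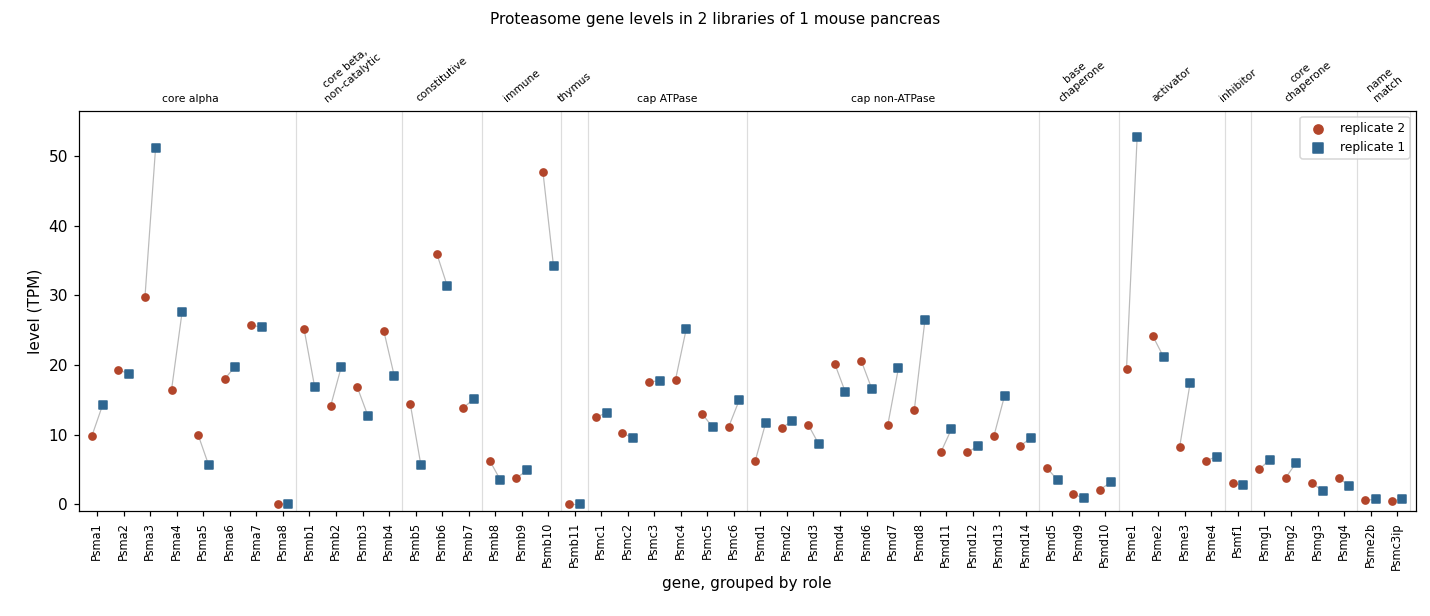
Level of each of the 50 genes in TPM (vertical axis), grouped by role; circles are replicate 2 and squares replicate 1, joined by a grey line. Psmb10, Psma3 and Psme1 reach above 45 TPM in at least 1 library, chaperones and the inhibitor stay below 7 TPM, and Psma8 and Psmb11 lie at or near 0.

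The alpha subunits form the outer rings and the gate of the core. Psma3 was the highest of them, at 29.79 TPM in replicate 2 and at 51.20 TPM in replicate 1. Psma7 had 25.75 TPM in replicate 2 and 25.42 TPM in replicate 1. Its TPM nearly matched while its scaled counts did not, at a log2 ratio of 0.71 (95% interval 0.35 to 1.06), with an effective length of 753 bases in replicate 2 and 563 in replicate 1. Psma5 was by mean the lowest of the standard alpha genes, with 10.02 TPM in replicate 2 and 5.64 TPM in replicate 1. Without Psma8, the median of the 7 alpha genes was 18.0 TPM in replicate 2 and 19.8 TPM in replicate 1. Psma8, the alpha subunit used in male germ cells, had 1 count in replicate 2 and 0 in replicate 1, and the germ cell markers Sycp1, Sycp3 and Ddx4 summed to 0.22 TPM and 0.34 TPM.

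The 4 beta subunits with no active site, Psmb1 to Psmb4, lay close together. Psmb4 had 24.94 TPM in replicate 2 and 18.40 TPM in replicate 1, and Psmb1 had 25.11 and 16.78 TPM in the same libraries. Psmb3, the lowest by mean, had 16.86 TPM in replicate 2 and 12.74 TPM in replicate 1, and Psmb2, lower in replicate 2, had 14.14 and 19.73 TPM. Within each library the highest of the 4 was 1.78 times the lowest in replicate 2 and 1.55 times in replicate 1.

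Psmb10, the immune subunit with trypsin-like activity, had the highest mean TPM of all 50 genes. It had 47.78 TPM in replicate 2 and 34.22 TPM in replicate 1, or 41.0 ± 9.59 TPM (SD, n = 2), from 402 and 331 counts. Psma3 followed at a mean of 40.5 ± 15.1 TPM, so the order of these genes is within the spread between the libraries, and Psme1 exceeded Psmb10 in replicate 1. Psmb10 ranked 2 of 50 by mean in FPKM, after Psma3, and with posterior mean TPM it ranked 4 of 50, after Psmd13, Psma3 and Psme1. On that last scale Psmd13, a cap subunit, was at 51.34 in replicate 2 and 58.91 in replicate 1, against 9.80 and 15.56 TPM. A single Psmd13 transcript made up 73.8% of that level in replicate 2 and 70.4% in replicate 1. By TPM that transcript was not the leading one in either library. The other immune subunits were low: Psmb8, with chymotrypsin-like activity, had 6.24 TPM in replicate 2 and 3.48 TPM in replicate 1. Psmb8-202, a retained-intron transcript, was at 0 TPM in replicate 2 and made up 40.8% of the Psmb8 level in replicate 1. Psmb9, the immune counterpart of Psmb6, had 3.78 TPM in replicate 2 and 4.86 TPM in replicate 1. Its coding transcript Psmb9-204 was at 2.17 TPM in replicate 2 and 0 TPM in replicate 1, where a retained-intron transcript, Psmb9-205, made up 85.6% of the level. Psmb10 was therefore 7.66 times Psmb8 in replicate 2 and 9.83 times in replicate 1, and 12.6 and 7.04 times Psmb9.

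Among the constitutive subunits, Psmb6, with caspase-like activity, was the highest at 35.99 TPM in replicate 2 and 31.30 TPM in replicate 1. Psmb7, the trypsin-like subunit that Psmb10 replaces, had 13.85 TPM in replicate 2 and 15.16 TPM in replicate 1. It shares 405 exon bases with Nek6 on the opposite strand, which was at 2.81 and 1.97 TPM. Psmb5, the chymotrypsin-like subunit, had 14.42 TPM in replicate 2 and 5.66 TPM in replicate 1, the widest gap of the 3.

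The balance of immune to constitutive subunits differed by pair. Psmb8 stood at 0.433 times Psmb5 in replicate 2 (95% exact counting interval 0.299 to 0.621) and 0.615 times in replicate 1 (0.389 to 0.979). Psmb9 stood at 0.105 times Psmb6 in replicate 2 (0.0688 to 0.155) and 0.155 times in replicate 1 (0.101 to 0.231). Psmb10 stood at 3.45 times Psmb7 in replicate 2 (2.77 to 4.33) and 2.26 times in replicate 1 (1.83 to 2.81). In both libraries the Psmb10 pair lay above 1 in TPM and the other pairs lay below it, with no interval reaching 1. The interval of the Psmb8 pair in replicate 1 came nearest, at 0.979. In counts that pair lay the other way in replicate 1, with 48 for Psmb8 and 35 for Psmb5. In replicate 2 the counts were 53 and 78. The effective length of Psmb8 was 1128 bases in replicate 2 and 1579 in replicate 1, and it enters the TPM. With posterior mean TPM, Psmb8 to Psmb5 was 0.450 in replicate 2 and 0.698 in replicate 1, and no interval was computed in that unit. The intervals given cover counting error only and hold effective lengths fixed, and amplified reads are not independent molecules. Summed over the 3 pairs, the immune to constitutive ratio was 0.899 in replicate 2 and 0.817 in replicate 1, and with Psmb10 and Psmb7 left out it was 0.199 and 0.226.

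**Figure D2:**
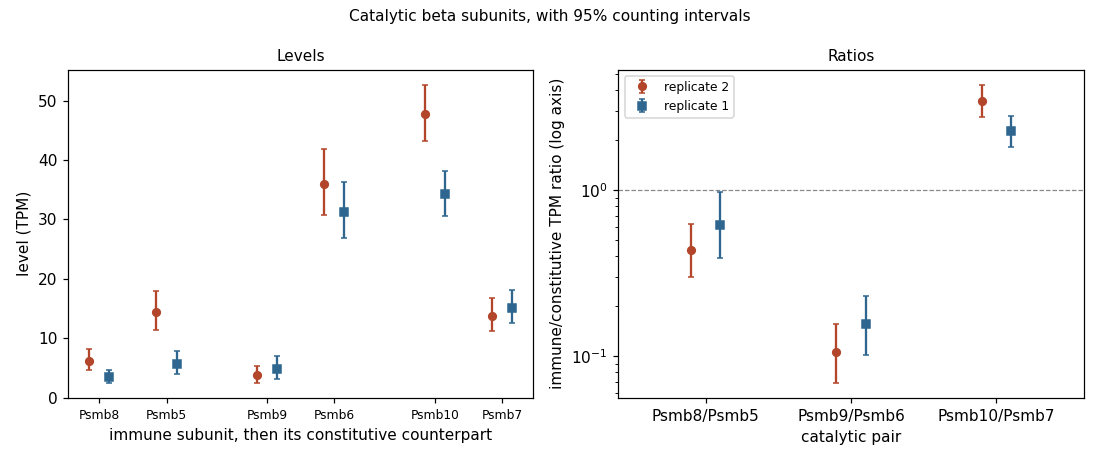
Left, levels in TPM of each immune subunit and its constitutive counterpart; right, their TPM ratio on a log axis with a dashed line at 1. Circles are replicate 2, squares replicate 1 and bars 95% counting intervals; Psmb10/Psmb7 is 3.45 and 2.26, while the other pairs lie below 1.

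Psmb10 lies at chr8:105935735-105938444 on the minus strand of GRCm38, in a gene-dense stretch. The next gene downstream on the same strand is Ctrl, a chymotrypsin-like protease of acinar cells, 1872 bases away and at 12133 TPM in replicate 2 and 11256 TPM in replicate 1. Ctrl shares no annotated exon base with Psmb10. Lcat, an enzyme of cholesterol esterification on the other side, was 1106 bases away at 3.46 TPM in replicate 2 and 3.40 TPM in replicate 1. The antisense gene Gm16156 spans Psmb10 on the opposite strand at 3.08 and 1.25 TPM. Whether the position beside Ctrl bears on the level of Psmb10 was not tested.

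Levels of immune cell markers are given beside the immune subunits. Macrophage markers were present, all 7 at 1 TPM or more in both libraries, summing to 141 TPM in replicate 2 and 147 TPM in replicate 1, of which Lyz2, a lysozyme, was at 82.66 and 86.42 TPM. The 4 general leukocyte markers summed to 17.1 TPM in replicate 2 and 14.4 TPM in replicate 1. Of these, Coro1a had 3.59 TPM in replicate 2 and 0.76 TPM in replicate 1 and Cd52 had 6.62 and 2.93 TPM, while Ptprc had 1.38 and 3.63 TPM and Laptm5 had 5.52 and 7.11 TPM. None of the 6 T cell markers reached 1 TPM in both libraries, and Cd3g and Cd8a had 0 counts. The 4 MHC class II genes, all at 1 TPM or more in both libraries, summed to 130 TPM in replicate 2 and 144 TPM in replicate 1. Of 4 dendritic cell markers only Zbtb46, at 3.04 and 3.27 TPM, reached 1 TPM in both libraries. None of the 4 B cell markers did. In bulk tissue, fewer cells of a type and less RNA per cell cannot be told apart, and the part of these cells in the immune subunit levels was not tested. Psmb9 shares 212 exon bases with Tap1 on the opposite strand, and the sources used here do not say whether counting used strand, so a read there cannot be placed with certainty.

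Psmb11, the catalytic subunit of the thymic cortical epithelium, had 0 counts in both libraries. A count of 0 allows up to 0.306 CPM (counts scaled by the library total) in replicate 2 and 0.318 CPM in replicate 1. Foxn1, the transcription factor that defines thymic epithelium, also had 0 counts.

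The 6 ATPases of the cap, which unfold the substrate, lay within a narrow range. Psmc4 had 17.92 TPM in replicate 2 and 25.13 TPM in replicate 1, and Psmc3 had 17.56 and 17.76 TPM. Psmc2, the lowest, had 10.21 TPM in replicate 2 and 9.53 TPM in replicate 1. Psmc3 shares 215 exon bases with Slc39a13 on the opposite strand, which was at 9.74 and 8.73 TPM.

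The 11 non-ATPase cap subunits with a Psmd name include scaffold subunits, ubiquitin receptors and the deubiquitinase of the cap. Adrm1 and Sem1, also of the cap, do not match the naming rule and are given with the partners below. Psmd8 had 13.55 TPM in replicate 2 and 26.42 TPM in replicate 1, the widest gap of the class by SD. Psmd6 had 20.61 TPM in replicate 2 and 16.56 TPM in replicate 1. Psmd12, the lowest by mean, had 7.47 TPM in replicate 2 and 8.37 TPM in replicate 1. The class median was 11.0 TPM in replicate 2 and 12.0 TPM in replicate 1, against 12.8 and 14.0 TPM for the ATPases.

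Levels of the standard core and cap subunits were less spread than those of genes in general. The SD of log2 TPM over the 14 standard core subunits was 0.56 in replicate 2 and 0.86 in replicate 1, and over the 17 cap subunits it was 0.51 and 0.50. Protein-coding genes at 1 TPM or more in both libraries had an SD of 1.67 in replicate 2 and 1.69 in replicate 1. The 3 immune catalytic subunits, left out of the core here, had an SD of 1.94 in replicate 2 and 1.78 in replicate 1. The activators had 0.94 and 1.21. Median levels were 17.4 TPM in replicate 2 and 18.6 TPM in replicate 1 for the core, against 11.4 and 13.1 TPM for the cap. These values describe mRNA and were given no test.

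Among the 50 genes, chaperones that assemble the particle had lower mean levels than any standard core or cap subunit. That order held for the means but not within replicate 1, where Psmg1 and Psmg2 exceeded Psma5 at 5.64 TPM and Psmb5 at 5.66 TPM. Pomp, which also acts in core assembly, does not match the naming rule and is given with the partners below. It was higher, at 14.17 TPM in replicate 2 and 19.83 TPM in replicate 1. Of the chaperones of the cap base, Psmd5 had 5.22 TPM in replicate 2 and 3.48 TPM in replicate 1. Psmd10, also known as gankyrin, had 2.09 TPM in replicate 2 and 3.17 TPM in replicate 1. Psmd9 had 1.47 TPM in replicate 2 and 0.85 TPM in replicate 1, from 27 and 18 counts. Among the core chaperones with a Psm name, Psmg1 was the highest at 5.01 TPM in replicate 2 and 6.41 TPM in replicate 1. Its partner Psmg2 had 3.81 TPM in replicate 2 and 6.00 TPM in replicate 1. Psmg3 was the lowest, at 3.08 TPM in replicate 2 and 1.85 TPM in replicate 1.

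Among the activators, Psme1 and Psme2 together form the interferon-inducible ring that opens the core. Psme2 had 24.10 TPM in replicate 2 and 21.12 TPM in replicate 1. Psme1 had 19.49 TPM in replicate 2 and 52.78 TPM in replicate 1, so the Psme1 to Psme2 ratio was 0.809 in replicate 2 and 2.50 in replicate 1. Psme3, which forms the nuclear activator ring, had 8.19 TPM in replicate 2 and 17.48 TPM in replicate 1. Psme4, a large single-chain activator, had 6.29 TPM in replicate 2 and 6.82 TPM in replicate 1. Psmf1, an inhibitor of the core, had 2.99 TPM in replicate 2 and 2.73 TPM in replicate 1.

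The genes given no role, Psme2b and Psmc3ip, were near the limit of detection. Psme2b had 3.03 counts in replicate 2 and 4.15 in replicate 1. The posterior SD of its count, 0.2 in replicate 2 and 0.43 in replicate 1, equalled that of Psme2. Whether these genes share reads was not tested. Psmc3ip, a recombination factor of meiosis, had 4 counts in replicate 2 and 6 in replicate 1, and shares 385 exon bases with Mlx on the opposite strand.

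Each gene's counts were then compared between the libraries, to show which levels repeat and which do not. An exact two-sided binomial test of the counts given their sum was used, with p as 2 times the smaller tail, TMM-scaled totals and Benjamini-Hochberg adjustment over the 12452 genes that averaged 10 counts or more. It holds counting error only and compares these libraries, not conditions. Calls needed both an adjusted p under 0.05 and a 2-fold ratio, and 46 of the 50 genes could be tested. Psma8, Psmb11, Psme2b and Psmc3ip averaged fewer and were left out.

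Psmb5 and Psma5 were called higher in replicate 2 and no proteasome gene was called lower. Over all genes tested, 12.0% were called, 8.14% higher and 3.82% lower. Psmb5 had 78 counts in replicate 2 and 35 in replicate 1, a log2 ratio of 1.63 (95% interval 1.05 to 2.26) with an adjusted exact binomial p of 1.23e-07. Psma5, an alpha ring subunit, had 82 counts in replicate 2 and 53 in replicate 1, a log2 ratio of 1.11 (0.60 to 1.64) with an adjusted exact binomial p of 0.000100. An adjusted p under 0.05, whatever the size, was reached by 23 of the 46, or 50%, against 35.4% of all genes tested. These shares are not matched for depth, and a counting test reaches small differences more readily in genes with more counts. A mean of 50 counts or more was held by 39 of the 46, against 7729 of the 12452 genes tested. Both calls were lost in edgeR's exact test with an assumed dispersion of 0.1, which called none of the 46 and 0.361% of all genes tested.

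Psmd9 sat on the threshold, and its call depended on how the two-sided p is formed. Its log2 ratio was 1.05 (0.15 to 2.01), and its adjusted exact binomial p was 0.0563 with 2 times the smaller tail and 0.0432 with the sum over outcomes no more likely. The second form was tried after the first calls had been seen. It called 3 of the 46 genes higher, Psmd9 being added, and 12.3% of all genes tested, 8.31% of them higher in replicate 2. Just below the size threshold were Psmd3, a cap scaffold subunit, at 0.96 and Psme3 at -0.90.

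The scaling of the libraries moved the direction of many small ratios. With TMM scaling the median log2 ratio of the 46 genes was 0.38, with 31 above 0 and 15 below, against -0.01 for all genes tested. With plain library totals every log2 ratio shifted by -0.54, the median of the 46 was -0.16 and 15 lay above 0. Psmb5 alone was then called higher, against 2.68% of all genes. Psma4, Psmd7, Psmd8, Psme1 and Psme3 were called lower, against 20.6% of all genes. After a trend on GC content and length was removed, Psmb1 joined Psmb5 and Psma5 as higher, against 4.14% of all genes, and none was lower, against 3.69%.

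**Figure D3:**
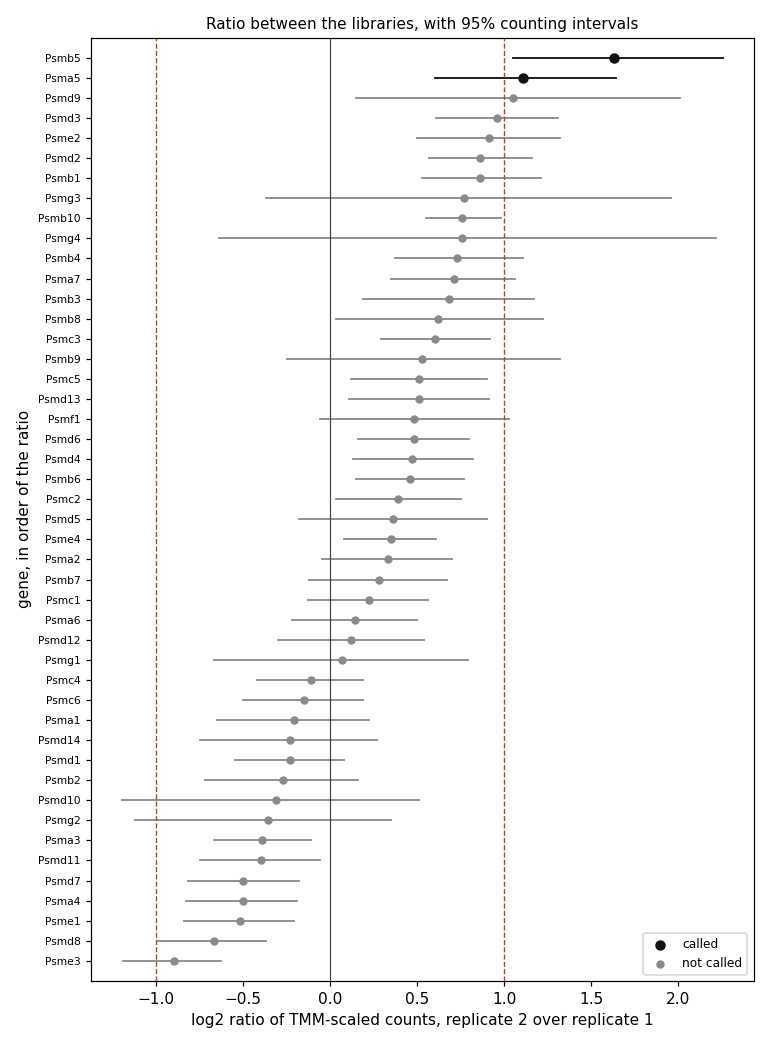
Log2 ratio of TMM-scaled counts, replicate 2 over replicate 1 (horizontal axis), for the 46 genes tested, with 95% counting intervals; dashed lines mark the 2-fold thresholds. Psmb5 at 1.63 and Psma5 at 1.11, in black, were called, while Psmd9 at 1.05 missed the adjusted p.

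Transcript levels bear on the gene levels in TPM, since a read assigned to a short transcript adds more TPM. Of 24 genes with several transcripts and a mean of at least 100 counts, 4 had a different leading transcript in each library, namely Psma3, Psmd13, Psme1 and Psme2. With posterior mean transcript TPM there were also 4, with Psmd2 in place of Psmd13, whose leading transcript was then the same in both libraries. For Psme1 the short transcript Psme1-209, 439 bases long and annotated as a target of nonsense-mediated decay, had 0 TPM in replicate 2 and 24.87 TPM in replicate 1. It made up 47.1% of the gene's level in replicate 1 from 60.08 counts. The coding transcript Psme1-208 had 13.85 TPM in replicate 2 and 18.35 TPM in replicate 1. The log2 ratio of Psme1 was -1.44 in TPM and -0.52 in scaled counts. Scaling also sets these measures apart, as in Psmb10, with 0.48 in TPM and 0.76 in scaled counts.

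Psma3-207, another transcript annotated for nonsense-mediated decay, had 7.86 TPM in replicate 2 and 22.06 TPM in replicate 1, while the coding Psma3-204 had 10.30 and 9.72 TPM. Psmd13-201, the coding transcript of a cap subunit, took 58.8% of its gene's level in replicate 2 and 12.2% in replicate 1. Psmd13 shares 342 exon bases with Sirt3 on the opposite strand. These shares are estimates that divide reads among overlapping transcripts, and they were given no test.

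**Figure D4:**
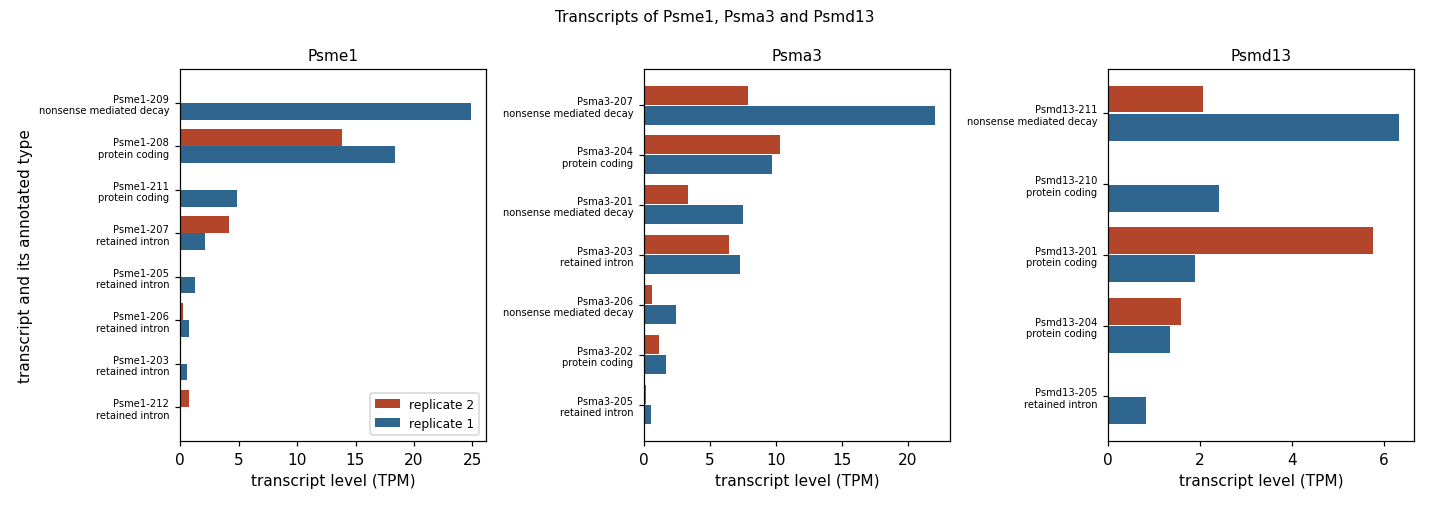
Transcript levels in TPM (horizontal axis) of Psme1, Psma3 and Psmd13, with the annotated type under each name; upper bars are replicate 2 and lower bars replicate 1. Psme1-209 is at 0 TPM in replicate 2 and 24.87 TPM in replicate 1, while Psme1-208 is at 13.85 and 18.35 TPM.

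Genes that act with the particle had a median of 6.62 TPM (replicate 2) and 9.03 TPM (replicate 1). Over all genes tested 12.0% were called, 8.14% higher and 3.82% lower, which is the background for the counts that follow. Of 18 measured partners, all reached 1 TPM in both libraries, and Adrm1, a ubiquitin receptor of the cap, was called higher at a log2 ratio of 1.30 while none was lower. Vcp, the segregase that delivers substrates, had 24.49 TPM in replicate 2 and 21.03 TPM in replicate 1. Pomp, the maturation factor of the core, had 14.17 and 19.83 TPM. Sem1, a small cap subunit, had 10.67 TPM in replicate 2 and 19.85 TPM in replicate 1.

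Of the 4 genes listed under transcription of subunit genes, which are not all transcription factors, none was called. Nfe2l1, which raises subunit genes when proteasomes are inhibited, had 17.14 TPM in replicate 2 and 23.27 TPM in replicate 1. Nfe2l2, a regulator of the oxidative stress response, had 9.67 and 18.57 TPM. Among the 6 ubiquitin genes none was called, and Ubb, a polyubiquitin gene, had 161 TPM in replicate 2 and 121 TPM in replicate 1. None of the 12 genes of endoplasmic reticulum degradation was called, and Sel1l, the adaptor of that pathway's ligase, had 244 TPM in replicate 2 and 265 TPM in replicate 1.

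Of 16 interferon signalling genes, Irf2 was called lower, at 3.36 TPM in replicate 2 and 8.78 TPM in replicate 1, and none was higher. Of 8 class I antigen processing genes, B2m, the light chain of class I molecules, was called lower, at 175 TPM in replicate 2 and 646 TPM in replicate 1, and none was higher. Among the cell type markers, Cd52, Coro1a and the acinar elastase gene Cela1 were called higher, and Cd79a of B cells and Gcg, the glucagon gene of islets, were called lower.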

How the data were processed

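Both libraries were quantified by the authors on build mm10 with GENCODE M4, per the deposited README files. The names of the aligner and quantifier were not given in the sources used here. The deposited gene and transcript tables hold expected counts, TPM, FPKM, a posterior mean TPM signal and, as a score, the posterior SD of each count. The deposited transcript tables also hold each transcript's percent of its gene. Gene names came from GENCODE M21 by gene ID, with 42462 of 43346 rows matched.

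Expected counts were rounded and scaled by TMM (edgeR 4.0.16, R 4.3.3), and each gene was tested with an exact binomial test (scipy). edgeR's quasi-likelihood test has no residual degrees of freedom with 1 library a side. The design fixed an exact two-sided test but not how the two-sided p is formed. The form that takes 2 times the smaller tail was run first and kept, since the Clopper-Pearson intervals correspond to it. After its calls were seen, the sum over outcomes no more likely was also run, because an earlier account of these data gave the total that form yields. It changed the call of Psmd9, and both results are given. The test was checked on simulated counts that held counting error only, with the same make-up in both libraries apart from planted changes. That check cannot show how the test does on libraries that differ in make-up, as these do.

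The members and gene lists were chosen with earlier results of these data known. Named with values were the catalytic subunits, activators and inhibitor, the 2 highest and the lowest of each other class, called members and those just below the size threshold; of each list, up to 3 of the highest and any called. Psmb10 neighbours, exon overlaps and transcripts were described after their values were seen. Alternatives were DESeq2 size factors, other scalings, filters, pseudocounts and units, and assumed dispersions.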

Additional observations from a re-analysis of the deposited data

How the results depend on the processing

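With 2 technical libraries of 1 mouse, no spread between animals could be measured, and genes averaging under 10 counts were left out of the test by choice. With library totals, 1 member was called higher and 5 lower and the members' median log2 ratio was -0.16; Psmb6 (-0.08), Psmb7 (-0.26), Psmb9 (-0.01) and Psme4 (-0.19) changed sign, as that scaling shifts every ratio by -0.54. An assumed dispersion of 0.1 called 0 higher and 0 lower, and removing the GC content and length trend gave a median of 0.31. Forming the two-sided p as the sum over outcomes no more likely, an alternative chosen after seeing the data, called 3 members higher in place of 2 (Psmd9, adjusted p 0.0432 against 0.0563) and 1533 genes in all in place of 1490. DESeq2 size factors, upper quartile factors, other count filters, 5 added counts, posterior mean counts and a dispersion of 0.01 each called 2 higher and 0 lower.

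The members' share of TPM was 0.122% without Gm42418, Gm26917, Lars2 and genes of mitochondrial sequence. With posterior mean TPM, Psmb9 to Psmb6 was 0.175, Psmb8 and Psmb9 to Psmb5 and Psmb6 was 0.256, and the SD of log2 level over the cap was 0.69. In FPKM the core median was 15.3 and the cap median 10.4, and with log2(TPM + 1) the cap SD was 0.47. Psmb10 ranked 1 by mean TPM, 2 in FPKM and 4 with posterior mean TPM. The cause of these shifts was not tested. Leaving out each library in turn gave a share of 0.0629% to 0.0699%, Psmb8 to Psmb5 of 0.433 to 0.615, Psmb9 to Psmb6 of 0.105 to 0.155, Psmb10 to Psmb7 of 2.26 to 3.45, summed ratios of 0.817 to 0.899 and 0.199 to 0.226, core SDs of 0.56 to 0.86, cap SDs of 0.50 to 0.51, and medians of 17.4 to 18.6 TPM in the core and 11.4 to 13.1 TPM in the cap. A minimum of 300 counts for the leading transcript left no gene to compare. No paired analysis was possible because the libraries form 1 group.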
